A study of Rattus norvegicus with 65 samples.

Results

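The transcripts of 6 genes of the endocannabinoid system were measured in the hypothalamus of 65 rats, 1 library per animal. The genes were the receptor Cnr1, the synthesising enzymes Dagla, Daglb and Napepld, and the degrading enzymes Faah and Mgll. They were taken by symbol from a table of 38513 genes. All 6 were found, and all 6 were among the 21871 genes that passed the filter on low counts.

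Endocannabinoids are lipid messengers that neurons make from their own membranes on demand. They act mainly on the receptor CB1, encoded by Cnr1, on the presynaptic ending, where they lower transmitter release, and in the hypothalamus this signalling is known to promote food intake. The messenger 2-arachidonoylglycerol is made by the diacylglycerol lipases Dagla and Daglb and broken down mainly by monoacylglycerol lipase, Mgll. Anandamide is made by several routes, one of them through the phospholipase Napepld, and is broken down by fatty acid amide hydrolase, Faah.

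The animals were male Wistar rats, 9 to 10 weeks old at the start and made obese with a high-fat diet for 6 weeks, and the hypothalamus was taken 4 weeks after the intervention, following 10 h of fasting. Roux-en-Y gastric bypass (RYGB, n = 14) reroutes food past most of the stomach and the upper small intestine. It was set against a sham operation (n = 11) and against body weight-matched rats (BWM, n = 7). BWM rats were fed restricted amounts to follow the weight of RYGB rats, and the study's abstract describes them as sham-operated too. In the last week they were heavier than RYGB rats. Liraglutide, an analogue of the gut hormone GLP-1 (0.4 mg/kg/day, under the skin, n = 5), the gut hormone fragment PYY3-36 (0.1 mg/kg/day, by minipump, n = 4) and both together (n = 10) were set against saline (n = 8). Rats other than BWM could choose between high-fat and low-fat food, and a lean group (n = 6) is given by its label. The study also names a group fed low-fat diet only, without saying whether it is the one labelled lean, so the diet given above may not hold for the lean rats.

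The libraries came from 2 periods of the study, batch A (37 libraries) and batch B (28 libraries). RYGB, sham, saline and the combined treatment were in both, BWM and lean in batch A only, and liraglutide and PYY3-36 in batch B only. Total counts ran from 20041010 to 36539941 per library, with a median of 27379945. Levels are given as CPM, the counts of a gene per a fixed number of counts of its library with library totals scaled by TMM, or as CPM per kilobase of merged exons (RPKM) where genes are compared. A gene was called changed at a Benjamini-Hochberg adjusted p under 0.05 over all 21871 genes in edgeR's quasi-likelihood test.

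The label hypothalamus was checked against 14 of its marker genes (among them Pmch, Oxt, Avp, Hcrt and Pomc). Their summed level was under 500 CPM in 13 of 65 libraries, from 54.4 to 457 CPM, and the next library stood at 752 CPM. Of the markers, Otp was at 0 in 5 libraries, and Hcrt, Sim1 and Fezf1 in 2 libraries each. The 13 libraries were spread unevenly: 4 of 11 sham (sham 1, 2, 6 and 10), 2 of 8 saline, 2 of 6 lean, 2 of 5 liraglutide, 1 of 4 PYY3-36, 1 of 10 PYY3-36 + liraglutide and 1 of 7 BWM libraries, and none of the 14 RYGB libraries. For the 6 genes, comparisons among RYGB, BWM and sham rats are given with and without these libraries. Most other results are given with all libraries only, and may rest on these as well. In bulk tissue, fewer cells of a type and less RNA per cell cannot be told apart.

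Per kilobase, Mgll had the highest level and Napepld the lowest. Mean RPKM over the 65 libraries was 32.6 ± 14.5 (SD) for Mgll, 14.4 ± 5.50 for Cnr1, 10.7 ± 4.36 for Dagla, 10.3 ± 1.85 for Daglb, 5.92 ± 2.19 for Faah and 2.94 ± 1.11 for Napepld. The order of RPKM held within most libraries. Mgll was above Cnr1 in 61 of 65, Cnr1 above Dagla in 53, Daglb above Faah in 64 and Faah above Napepld in 62. Dagla and Daglb could not be ordered, since Dagla had the higher RPKM in 34 of 65 libraries and their medians, 9.92 for Dagla and 9.97 for Daglb, lay in the other order than their means.

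**Figure D1:**
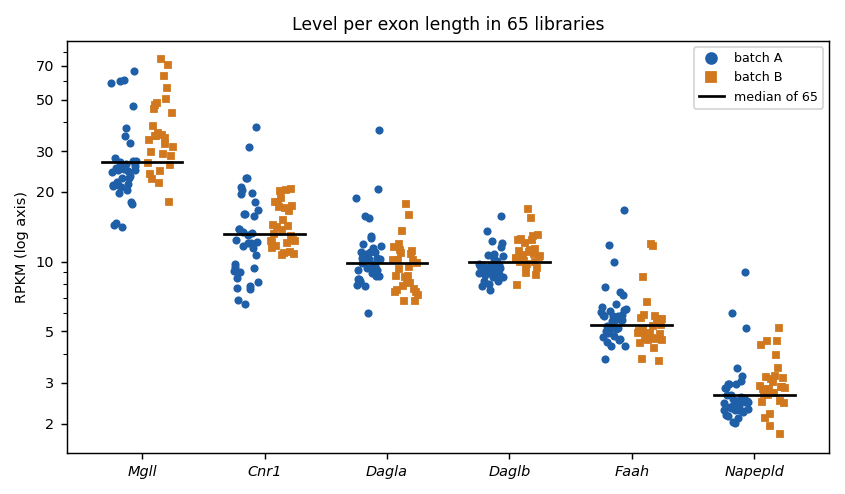
Level of the 6 genes per kilobase of exon in each library (RPKM, log axis), with batch A and batch B in separate columns. Mgll stood above Faah in all 65 libraries, while the medians of Dagla and Daglb were 9.92 and 9.97 RPKM.

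Faah has a second copy in the genome build used for counting. The gene LOC100911581 on the same chromosome has merged exons of the same length, 3870 bases, and its estimated counts differed from those of Faah in 12 of 65 libraries, by at most 5 counts. Reads that fit both had been divided between them, so Faah on its own is understated: summed with its copy, its mean level was 45.8 ± 17.0 CPM (SD, n = 65) instead of 22.9 ± 8.49 CPM. Its mean RPKM was then 11.8, above that of Daglb and Dagla, so the place of Faah in the order of RPKM depends on how the copy is treated.

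Cnr1 (chr5:49307584-49333064, plus strand, Rnor_6.0), the receptor gene, ran from 40.5 CPM in RYGB 11 to 236 CPM in sham 2, with a median of 81.6 CPM over all libraries. Its mean level was lowest in BWM rats, at 56.3 ± 10.9 CPM (SD, n = 7). The other groups followed at 83.2 ± 19.7 CPM with PYY3-36 (n = 4), 86.9 ± 25.8 after RYGB (n = 14), 88.4 ± 14.6 with liraglutide (n = 5), 90.8 ± 23.0 with saline (n = 8), 94.1 ± 26.1 with PYY3-36 + liraglutide (n = 10), 96.8 ± 50.9 after sham (n = 11) and 113 ± 54.3 CPM in lean rats (n = 6). Every group overlapped with its neighbours in this order. The group means, here and for the other genes below, pool both batches and are not adjusted for them. Cnr1 had the lowest unadjusted p of the 6 genes in the test for any difference over the 8 groups (F = 2.38, adjusted p = 0.187), in which 3.76% of all genes were called and none of the 6, by edgeR or by DESeq2. Only Cnr1 had an unadjusted p under 0.05 there, as did 21.5% of all genes.

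Dagla (chr1:226297013-226353712, minus strand), the lipase that makes most of the brain's 2-arachidonoylglycerol, ran from 34.4 CPM in RYGB 11 to 213 CPM in sham 2. This was the widest range of the 6, at 6.202-fold from the lowest to the highest library. Group means lay between 54.7 ± 9.44 CPM with liraglutide (n = 5) and 71.6 ± 51.8 CPM after sham (n = 11), with 56.7 ± 22.6 in BWM, 58.4 ± 11.2 with PYY3-36 + liraglutide, 58.7 ± 13.2 after RYGB, 59.96 ± 14.1 with saline, 62.2 ± 26.7 with PYY3-36 and 68.1 ± 13.1 CPM in lean rats. No group stood apart from any other group in its range.

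Daglb (chr12:13113073-13157748, minus strand), the second diacylglycerol lipase, was the steadiest of the 6, from 23.6 to 52.5 CPM or 2.23-fold. Its mean was 28.6 ± 2.01 CPM in BWM (n = 7), 29.5 ± 4.71 after RYGB (n = 14), 30.7 ± 3.22 with PYY3-36 + liraglutide, 31.1 ± 4.35 in lean, 34.3 ± 6.52 after sham, 35.4 ± 6.84 with saline, 35.4 ± 3.53 with liraglutide and 38.2 ± 9.76 CPM with PYY3-36. The highest BWM library, at 30.4 CPM, was below the lowest PYY3-36 library, at 30.6 CPM, and the lowest liraglutide library, at 31.1 CPM. BWM was in batch A only and the 2 hormone treatments in batch B only, so these differences cannot be told apart from the batch. Between the batches 40.7% of all genes were called. The share of all genes with these groups likewise apart was not computed, so the separation cannot be called particular to Daglb.

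Napepld (chr4:9965323-10004650, plus strand), the phospholipase of the anandamide route, ran from 13.003 CPM in sham 6 to 65.4 CPM in sham 1. Both the lowest and the highest library of the 65 were thus from the sham group, and both were among the 13 low in hypothalamic markers. Group means were 18.7 ± 3.70 CPM in lean, 18.8 ± 2.22 in BWM, 19.1 ± 3.03 with PYY3-36 + liraglutide, 20.4 ± 7.84 after RYGB, 21.0 ± 1.86 with PYY3-36, 22.1 ± 6.55 with liraglutide, 24.3 ± 7.90 with saline and 24.6 ± 14.9 CPM after sham, and all groups overlapped.

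Faah (chr5:134330204-134349400, minus strand), which hydrolyses anandamide, ran from 14.4 CPM in sham 7 to 64.99 CPM in sham 2. Group means were 20.6 ± 3.87 CPM with PYY3-36 + liraglutide, 21.5 ± 7.16 after RYGB, 22.4 ± 4.85 in BWM, 22.5 ± 6.85 with liraglutide, 23.8 ± 9.02 with saline, 24.4 ± 7.40 in lean, 24.8 ± 13.8 after sham and 25.9 ± 13.5 CPM with PYY3-36. All groups overlapped for Faah as well.

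Mgll (chr4:120671436-120773458, plus strand), which hydrolyses 2-arachidonoylglycerol, ran from 60.2 CPM in RYGB 9 to 318 CPM in PYY3-36 2. Group means were 109 ± 47.7 CPM after RYGB, 118 ± 61.5 in BWM, 134 ± 43.6 with PYY3-36 + liraglutide, 146 ± 62.0 in lean, 146 ± 37.05 with liraglutide, 158 ± 74.5 after sham, 159 ± 73.6 with saline and 174 ± 97.5 CPM with PYY3-36. All groups overlapped here too. In saline rats Mgll was 75.6 to 116 CPM in batch A and 137 to 270 CPM in batch B. BWM and lean were in batch A only and liraglutide and PYY3-36 in batch B only. The order of their means cannot be told apart from the batch.

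**Figure D2:**
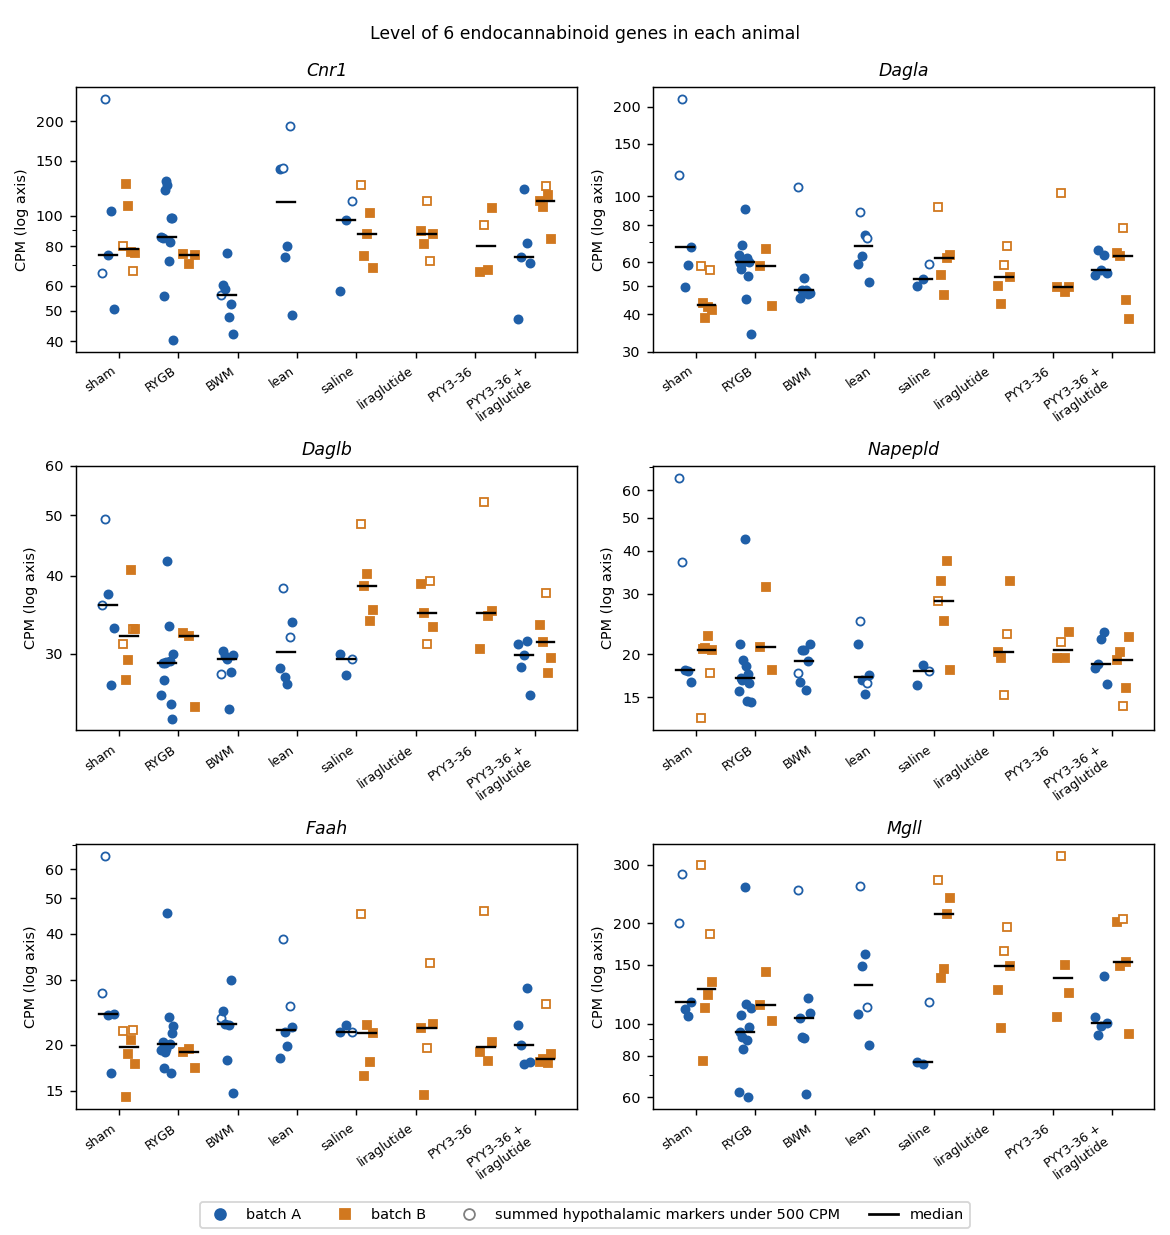
Level of each gene in each animal (CPM, log axis) by group and batch, with a line at the median of each group in a batch. Open symbols are the 13 libraries with summed hypothalamic markers under 500 CPM, and among them sham 2 of batch A had the highest Cnr1 (236 CPM), Dagla (213 CPM) and Faah (64.99 CPM) of all libraries.

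The highest levels of several genes fell in the libraries with the highest markers of neighbouring brain regions. For Faah, the 5 highest libraries were sham 2 (64.99 CPM), PYY3-36 2 (46.1), RYGB 6 (45.5), saline 4 (45.4) and lean 2 (38.6 CPM), above a next value of 33.4 CPM. The same 5 libraries had the highest summed level of 7 cortical markers, from 785 to 1939 CPM, against a next value of 337 CPM. Mgll and Daglb each shared 4 of their 5 highest libraries with these. The overlap was not limited to regional markers. Of the 5 libraries highest in general neuronal markers, Faah shared 4, Mgll, Daglb and Cnr1 3 each and Dagla and Napepld 2 each.

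Dagla was highest in sham 2 (213 CPM), sham 1 (118), BWM 1 (108), PYY3-36 2 (102) and saline 4 (91.7 CPM). All 5 were among the 13 libraries low in hypothalamic markers. Napepld shared 4 of its 6 highest libraries with the 6 highest sums of thalamic and habenular markers, which ran from 307 to 1036 CPM against a next value of 223 CPM, and sham 1 was first in both. For Cnr1, 3 of the 5 highest libraries (sham 2, lean 5 and lean 2) were among the 13. Whether the tissue taken accounts for these levels was not tested beyond the values with and without the libraries.

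**Figure D3:**
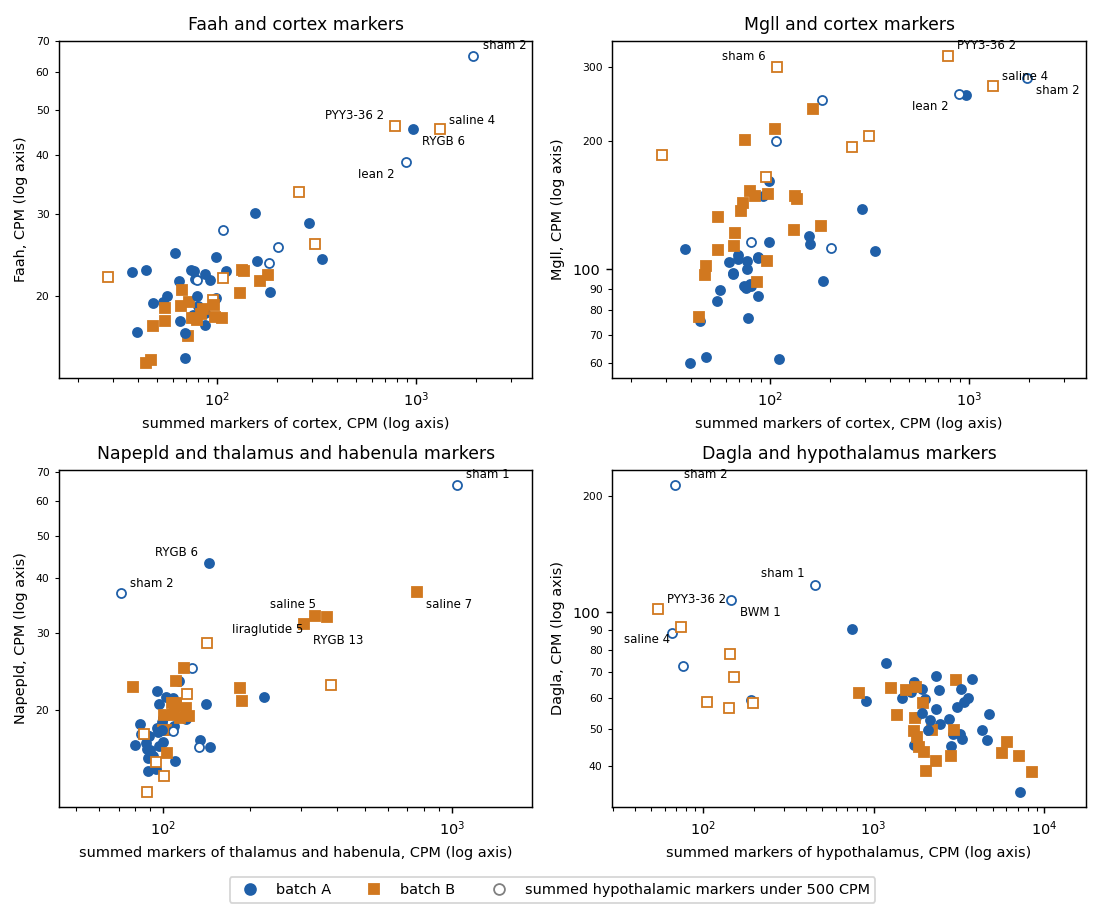
Level of Faah and Mgll against summed cortical markers, of Napepld against summed thalamic and habenular markers, and of Dagla against summed hypothalamic markers (CPM, both axes log), 1 point per library. The 5 libraries with the highest Faah lay at 785 CPM or more of cortical markers and all others at 337 CPM or less, while the 5 highest Dagla libraries lay under 500 CPM of hypothalamic markers.

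The genes varied together to unequal degrees. As a description over the 65 libraries, which share depth and dissection, Pearson's r on log2(CPM + 1) with the mean of each group in each batch subtracted was highest for Faah and Daglb (0.76), Mgll and Dagla (0.73), Faah and Mgll (0.69) and Faah and Dagla (0.65). Over the 52 libraries left without the 13, the r was 0.58 for Faah and Daglb, 0.44 for Mgll and Dagla, 0.59 for Faah and Mgll and 0.23 for Faah and Dagla. Cnr1 and Napepld followed the others less closely. The r of Cnr1 to the other 5 lay between 0.18 and 0.47 over all libraries and between -0.12 and 0.42 without the 13, and that of Napepld between 0.27 and 0.42 over all libraries and between 0.36 and 0.47 without the 13.

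The promoters of Faah, Daglb and Mgll are shown so that their make-up can be compared, since both Daglb and Mgll were among the closest to Faah. Dagla, which was also close to Faah and Mgll over all libraries, had no entry to print. Each is the 250 bases before the start in RefSeq (build GRCr8, not the build of the counts), printed 5′ to 3′ on the strand of the gene. Capitals mark a GC box (GGGCGG), an E box (CACGTG), a cAMP response element (TGACGTCA) or a TATA box (TATAAA), each searched on both strands. RefSeq entries were found for 4 of the 6 genes, these and Napepld.
Faah, chr5:134735397-134735646, minus strand: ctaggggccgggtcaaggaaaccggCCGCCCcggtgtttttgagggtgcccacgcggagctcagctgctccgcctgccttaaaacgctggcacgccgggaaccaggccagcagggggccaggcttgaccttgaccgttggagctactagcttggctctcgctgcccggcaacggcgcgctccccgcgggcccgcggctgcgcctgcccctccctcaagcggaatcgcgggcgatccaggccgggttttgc
Mgll, chr4:122749186-122749435, plus strand: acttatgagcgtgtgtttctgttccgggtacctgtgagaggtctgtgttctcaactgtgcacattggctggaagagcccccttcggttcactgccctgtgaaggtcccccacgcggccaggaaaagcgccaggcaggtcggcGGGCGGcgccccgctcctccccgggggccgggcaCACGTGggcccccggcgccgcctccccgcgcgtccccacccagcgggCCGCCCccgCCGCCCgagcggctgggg
Daglb, chr12:16215759-16216008, minus strand: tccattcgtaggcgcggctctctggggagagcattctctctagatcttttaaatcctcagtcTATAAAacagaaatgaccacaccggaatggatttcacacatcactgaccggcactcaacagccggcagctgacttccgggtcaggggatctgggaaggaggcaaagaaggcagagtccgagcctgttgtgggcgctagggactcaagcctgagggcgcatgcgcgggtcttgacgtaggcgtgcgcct

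The 3 promoters differed in these motifs. Faah held 1 GC box and Mgll held 3 with 1 E box, and both were rich in G and C (70.4% and 72.4%). Daglb held no GC box but 1 TATA box, at 56.4% G and C. The promoter of Napepld (chr4:14253010-14253259, plus strand), which is not printed, held 8 GC boxes. Among 33469 rat promoters of this length, 30.5% held a GC box, 5.59% an E box, 1.59% the cAMP response element and 12.9% a TATA box. A match is a description of the letters and not of a bound site.

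In RYGB rats against sham rats, all 6 genes had lower fitted levels and none was called, while 13% of all genes were. Dagla, as an example, had a lowest, median and highest level of 34.4, 59.8 and 90.5 CPM after RYGB and 39.0, 56.5 and 213 CPM after sham. Mgll had 60.2, 99.8 and 257 CPM after RYGB and 77.1, 122 and 300 CPM after sham. The groups overlapped almost fully for both, and the sham group held the higher extremes. The log2 fold change was -0.16 ± 0.20 (SE) for Cnr1, -0.34 ± 0.18 for Dagla, -0.20 ± 0.09 for Daglb, -0.28 ± 0.18 for Napepld, -0.27 ± 0.18 for Faah and -0.43 ± 0.23 for Mgll, against a median of -0.02 over all genes.

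Of these, Daglb came closest to a call (adjusted p = 0.133, range 0.0488 to 1 over 37 alternatives) and was the only one with an unadjusted p under 0.05, as were 30% of all genes. DESeq2 called none of the 6 either. The intervals still allowed sizeable differences, since the 95% confidence intervals of the 6 log2 fold changes together ran from -0.88 to 0.23. Leaving out RYGB 6 alone brought Daglb to a call (log2 fold change -0.24, adjusted p = 0.0488). Without the 13 libraries low in hypothalamic markers, 5 of the 6 fold changes turned positive, from 0.04 for Cnr1 to 0.22 for Dagla, and Daglb stayed at -0.11. None was called, while 11.8% of all genes were. The 13 hold 4 sham libraries and no RYGB library, so of these groups only sham lost libraries. The rest of the 13 belong to other groups, and the scaling and the batch term shared by all groups were fitted anew without them. RYGB 6, at 752 CPM of hypothalamic and 963 CPM of cortical markers, stayed in.

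In BWM rats against the same sham rats, again all 6 genes had lower fitted levels and none was called, among 0.320% of all genes. Cnr1 had the largest difference, with a lowest, median and highest level of 42.2, 56.3 and 76.3 CPM in BWM rats and 50.7, 76.7 and 236 CPM in sham rats. All BWM libraries but BWM 4 lay below all sham libraries but sham 5, and the groups overlapped. The log2 fold change of Cnr1 was -0.79 ± 0.25 (SE, 95% confidence interval -1.28 to -0.30, adjusted p = 0.126, range 0.0263 to 0.641 over 29 alternatives). It kept its negative sign in all 29 and was called in 2, within batch A and without the batch term.

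The other 5 genes differed less between BWM and sham. The log2 fold change was -0.46 ± 0.23 (SE) for Dagla, -0.40 ± 0.22 for Napepld, -0.27 ± 0.22 for Faah, -0.23 ± 0.28 for Mgll and -0.23 ± 0.11 for Daglb, with adjusted p from 0.401 to 0.796. Cnr1 and Daglb had an unadjusted p under 0.05, as did 12.3% of all genes, and DESeq2 called none of the 6. Without the 13 libraries the log2 fold change of Cnr1 was -0.57 ± 0.24 (adjusted p = 0.286) and those of Faah and Napepld were positive, at 0.05 and 0.11.

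RYGB rats had a higher fitted level of Cnr1 than BWM rats, without a call (log2 fold change 0.63 ± 0.23 SE, adjusted p = 0.269, range 0.0765 to 0.809 over 30 alternatives). No member was called, among 0.343% of all genes, and Cnr1 alone had an unadjusted p under 0.05, as did 12.6% of all genes. In batch A, where both groups were present, Cnr1 lay between 40.5 and 129 CPM after RYGB, with a median of 85.8 CPM. Within batch A it was at 0.69 ± 0.23, with no member called among 0.197% of all genes and Cnr1 alone at an unadjusted p under 0.05, as were 8.5% of all genes. Cnr1 was above the highest BWM library in 8 of 11 RYGB libraries and below the lowest in 1. The other 5 genes differed by a log2 fold change between -0.20 for Mgll and 0.12 for Napepld. This comparison uses no sham library in its groups, and without the 13 libraries, 1 of them BWM, Cnr1 stood at 0.60 ± 0.20 (adjusted p = 0.139).

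In lean rats against sham rats no member was called, and 0% of all genes were. Cnr1 ran from 48.4 to 193 CPM in lean rats with a median of 111 CPM, and 4 of the 6 genes had a negative log2 fold change, from -0.41 ± 0.23 (SE) for Napepld to 0.22 ± 0.25 for Cnr1. None of the 6 had an unadjusted p under 0.05, as 12.2% of all genes had, and DESeq2 called none.

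Within batch A alone, lean vs. sham called no member, among 0.0686% of all genes, and Dagla (-0.57 ± 0.25) and Napepld (-0.73 ± 0.24, adjusted p = 0.144) had an unadjusted p under 0.05, as did 15.3% of all genes. Set against saline rats instead of sham rats, none of the 6 was called for RYGB (0.00457% of all genes called), BWM (0.0412%) or lean rats (0%), by edgeR. An unadjusted p under 0.05 was found for Daglb in RYGB rats (-0.23 ± 0.10), for Cnr1 (-0.70 ± 0.26) and Daglb (-0.26 ± 0.12) in BWM rats and for no member in lean rats, beside 2.08%, 6.47% and 1.71% of all genes.

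**Figure D4:**
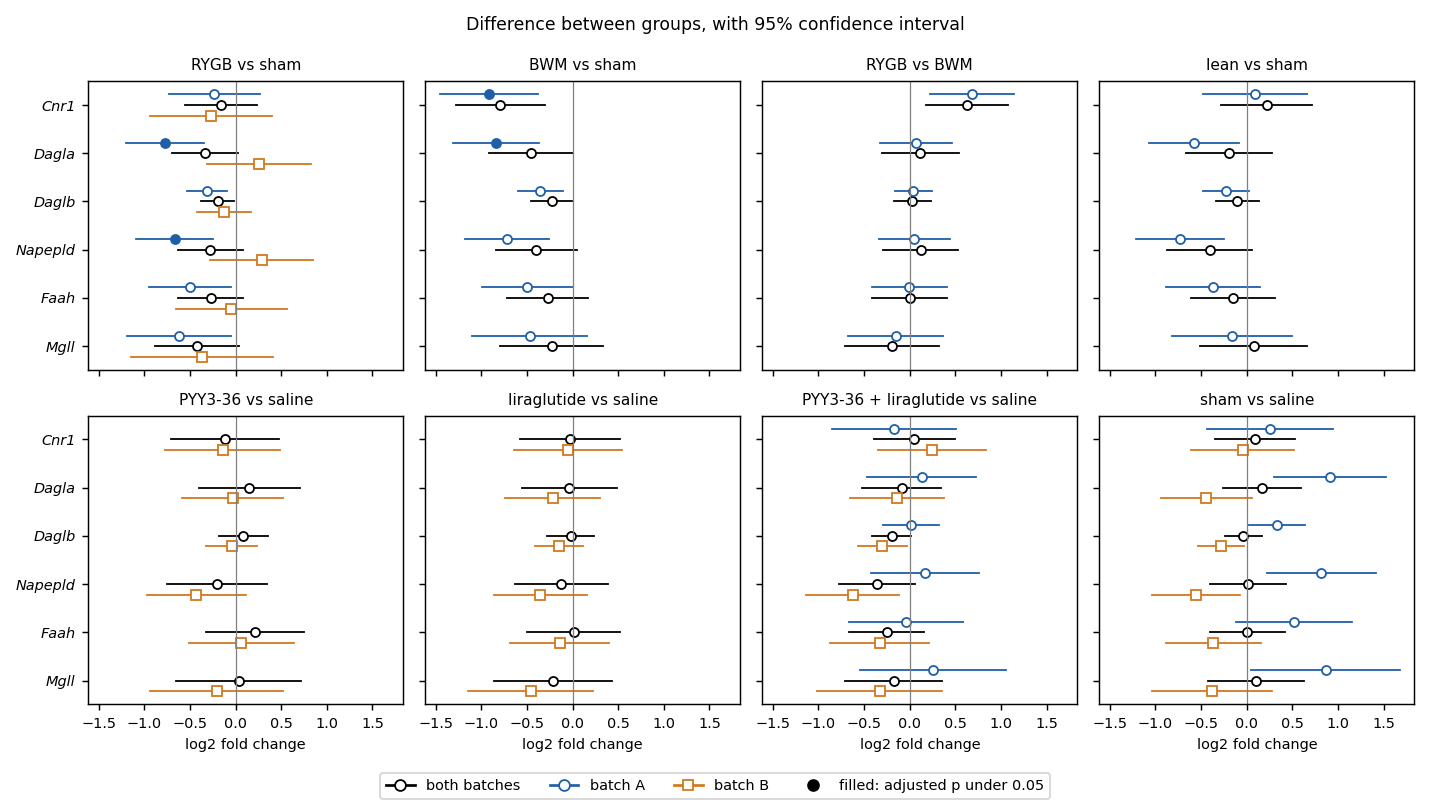
Log2 fold change of each gene in the 8 comparisons, with bars for the 95% confidence interval, over both batches (black) and within batch A (blue) or batch B (orange). Filled symbols are called, which were Dagla and Napepld for RYGB vs. sham and Cnr1 and Dagla for BWM vs. sham, all within batch A.

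The hormone treatments, which share the saline rats as controls, gave no call for any member. For PYY3-36 vs. saline, with 0% of all genes called, log2 fold changes ran from -0.20 ± 0.27 (SE) for Napepld to 0.21 ± 0.27 for Faah. For liraglutide vs. saline, also with 0% called, they ran from -0.22 ± 0.32 for Mgll to 0.01 ± 0.25 for Faah. For PYY3-36 + liraglutide vs. saline, with 0.00457% called, they ran from -0.36 ± 0.21 for Napepld to 0.05 ± 0.22 for Cnr1.

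No member had an unadjusted p under 0.05 in any of these 3 comparisons, against 7.54%, 2.08% and 2.53% of all genes, and DESeq2 called none. Within batch B no member was called for PYY3-36 (0.00457% of all genes called), liraglutide (0.00914%) or both (0.0137%), nor within batch A for both (0%). Daglb (-0.30 ± 0.13) and Napepld (-0.62 ± 0.25) had an unadjusted p under 0.05 with both treatments in batch B, where 5.88% of all genes had one, and no member had one in the other 3 fits, where 10.1%, 3.56% and 0.727% of all genes did. The difference between the batches for both treatments called no member and 0% of all genes, with Napepld (-0.79 ± 0.39) the only member at an unadjusted p under 0.05, as were 3.25% of all genes. The levels overlapped throughout. In batch B, for example, Cnr1 was 66.3 to 105.8 CPM with PYY3-36, 72.2 to 112 CPM with liraglutide, 84.7 to 125 CPM with both and 68.3 to 126 CPM with saline. The 95% confidence intervals reached from -0.86 to 0.75 on the log2 scale over the 3 comparisons, so differences up to that size could have been missed.

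Between sham and saline rats, the 2 control groups, no member was called over both batches, with 0.0137% of all genes called and log2 fold changes from -0.04 ± 0.10 (SE) for Daglb to 0.17 ± 0.21 for Dagla. Within the batches the directions parted. In batch A (5 sham and 3 saline libraries) all 6 genes were higher in sham, from 0.26 ± 0.34 for Cnr1 to 0.91 ± 0.31 for Dagla. In batch B (6 sham and 5 saline libraries) all 6 were lower, from -0.05 ± 0.28 for Cnr1 to -0.56 ± 0.24 for Napepld. None of these 12 values was called, with 0% and 0.0229% of all genes called in batch A and batch B, and 4 of 6 in batch A and 2 of 6 in batch B had an unadjusted p under 0.05, as did 14.3% and 9.5% of all genes. Sham 1, sham 2 and saline 3 of batch A and sham 6, sham 10 and saline 4 of batch B were among the 13 libraries low in hypothalamic markers. Dagla was 118 CPM in sham 1, 213 CPM in sham 2 and 49.6 to 67.3 CPM in sham 3 to 5. The values within a batch were not computed without these libraries.

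The difference between the batches was tested itself for sham vs. saline and called no member, among 0.00457% of all genes. The change in log2 fold change from batch A to batch B was -1.38 ± 0.39 (SE) for Napepld, -1.35 ± 0.39 for Dagla, -1.25 ± 0.52 for Mgll, -0.88 ± 0.41 for Faah, -0.60 ± 0.20 for Daglb and -0.30 ± 0.44 for Cnr1. The adjusted p ran from 0.171 to 0.836. Those of 5 genes, all but Cnr1, had an unadjusted p under 0.05, as did 11% of all genes.

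Between the batches themselves, with the groups held in the fit, none of the 6 was called while 40.7% of all genes were. Mgll was higher in batch B (log2 fold change 0.40 ± 0.19 SE, adjusted p = 0.0814, range 0.0372 to 0.192 over 6 alternatives) and Dagla lower (-0.31 ± 0.15, adjusted p = 0.0899, range 0.0207 to 0.999). Both had an unadjusted p under 0.05, as did 47.7% of all genes. Faah was at -0.27 ± 0.14 and the other 3 within 0.07 of 0.

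Within batch A alone, RYGB vs. sham called 2 of the 6 genes, Dagla and Napepld, among 8.64% of all genes. Dagla stood at 118, 213, 49.6, 58.7 and 67.3 CPM in sham 1 to 5, and at a lowest, median and highest of 34.4, 60.01 and 90.5 CPM in the 11 RYGB libraries. Napepld stood at 65.4 CPM in sham 1, 37.1 CPM in sham 2 and 16.6 to 17.97 CPM in the other 3 sham libraries, and at 14.5, 17.1 and 43.3 CPM after RYGB. The high values were those of sham 1 and sham 2, and sham 3 to 5 lay inside the RYGB range for both genes.

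The log2 fold change within batch A was -0.77 ± 0.21 (SE) for Dagla (adjusted p = 0.0211, range 0.00857 to 0.9751 over 18 alternatives) and -0.67 ± 0.21 for Napepld (adjusted p = 0.0372, range 0.00395 to 0.711). The other 4 genes were at -0.23 for Cnr1, -0.31 for Daglb, -0.50 for Faah and -0.62 for Mgll, not called. All but Cnr1 had an unadjusted p under 0.05, as did 25.5% of all genes. In batch B no member was called, among 2.74% of all genes, and Dagla and Napepld were at 0.26 ± 0.29 and 0.29 ± 0.28. No member had an unadjusted p under 0.05 in batch B, against 21.8% of all genes. The difference between the batches was not called for any member, with 0% of all genes called, and had an unadjusted p under 0.05 for Dagla (1.02 ± 0.36, adjusted p = 0.246) and Napepld (0.95 ± 0.35, adjusted p = 0.278), as for 10.4% of all genes.

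The 2 calls rested on sham 1 and sham 2. Without both, Dagla was at 0.02 ± 0.22 and Napepld at 0.15 ± 0.21, and without the 13 libraries, which include both, they were at 0.02 ± 0.15 and 0.16 ± 0.21, with none of the 6 called among 7.15% of all genes. Without sham 2 alone Dagla was at -0.31 (adjusted p = 0.405), and it stayed called when any 1 of the other 15 libraries was left out. Napepld was at -0.19 without sham 1 (adjusted p = 0.571) and at -0.60 without sham 2 (adjusted p = 0.123). It also lost its call without RYGB 1, 3, 4, 7, 8, 9 or 10, at log2 fold changes from -0.63 to -0.66.

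These 2 libraries carried the markers of other regions. Sham 2 had 68.5 CPM of summed hypothalamic markers and 1939 CPM of cortical ones, the highest of all libraries. Sham 1 had 457 CPM of hypothalamic markers and 1036 CPM of thalamic and habenular ones, the highest of all libraries. The 7 tested markers of thalamus and habenula all had lower fitted levels after RYGB in batch A, 4 of them called, beside 8.64% of all genes. Their summed level had a lowest, median and highest of 71.2, 96.0 and 1036 CPM in the 5 sham libraries, with sham 1 the highest. In the 11 RYGB libraries it was 88.3, 100 and 145 CPM, so the medians did not differ in that direction. The 7 markers of the meninges were all called higher, with a median log2 fold change of 3.61. Summed meningeal markers were 57.7 to 107 CPM in the 5 sham libraries and 94.996 to 3154 CPM in the 11 RYGB libraries of batch A, and their part in the results was not tested.

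Within batch A, BWM vs. sham also called 2 genes, Cnr1 and Dagla, among 5.28% of all genes. Cnr1 stood at 66.1, 236, 75.0, 104 and 50.7 CPM in sham 1 to 5 and at 56.3, 60.4, 58.7, 76.3, 47.7, 52.3 and 42.2 CPM in BWM 1 to 7. All BWM libraries but BWM 4 lay under 61 CPM, and sham 5 was inside their range. Dagla stood at 45.5 to 52.9 CPM in BWM 2 to 7 and at 108 CPM in BWM 1, a library among the 13. Of these, 5 BWM libraries lay below the lowest sham library, and BWM 1 lay between sham 5 and sham 1.

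The log2 fold change was -0.92 ± 0.27 (SE) for Cnr1 (adjusted p = 0.0343, range 0.0158 to 0.458 over 14 alternatives) and -0.84 ± 0.24 for Dagla (adjusted p = 0.0264, range 0.00233 to 0.916). Napepld was just short of a call (-0.72 ± 0.23, adjusted p = 0.0532, range 0.0203 to 0.898), and Daglb, Faah and Mgll stood at -0.35, -0.49 and -0.47. Cnr1, Dagla, Daglb and Napepld had an unadjusted p under 0.05, as did 19.6% of all genes. Without sham 2 alone Cnr1 was at -0.42 (adjusted p = 0.458) and Dagla at -0.40 (adjusted p = 0.384). Calls were also lost with little change in the fold, for Cnr1 without BWM 3, 5 or 7 (log2 fold change -0.93, -0.89 and -0.86, adjusted p from 0.0520 to 0.0981) and for Dagla without BWM 3 or 7 (-0.80 in both, adjusted p = 0.0532 and 0.0762).

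Without sham 1 and sham 2 neither gene was called, with Cnr1 at -0.47 ± 0.28 (adjusted p = 0.393) and Dagla at -0.07 ± 0.23 (adjusted p = 0.916). Without the 13 libraries Cnr1 was at -0.44 ± 0.27 and Dagla at -0.28 ± 0.16, with none of the 6 called among 3.19% of all genes. The 7 meningeal markers were all called higher in BWM as well, with a median log2 fold change of 4.19, and summed meningeal markers were 81.9 to 3122 CPM in BWM libraries. BWM 5 and BWM 7 had the highest sums of pituitary markers of all libraries, 76902 and 1148 CPM. Cnr1 stood at 47.7 CPM in BWM 5 and 42.2 CPM in BWM 7. The part of the meningeal and pituitary markers in the level of Cnr1 was not tested.

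**Figure D5:**
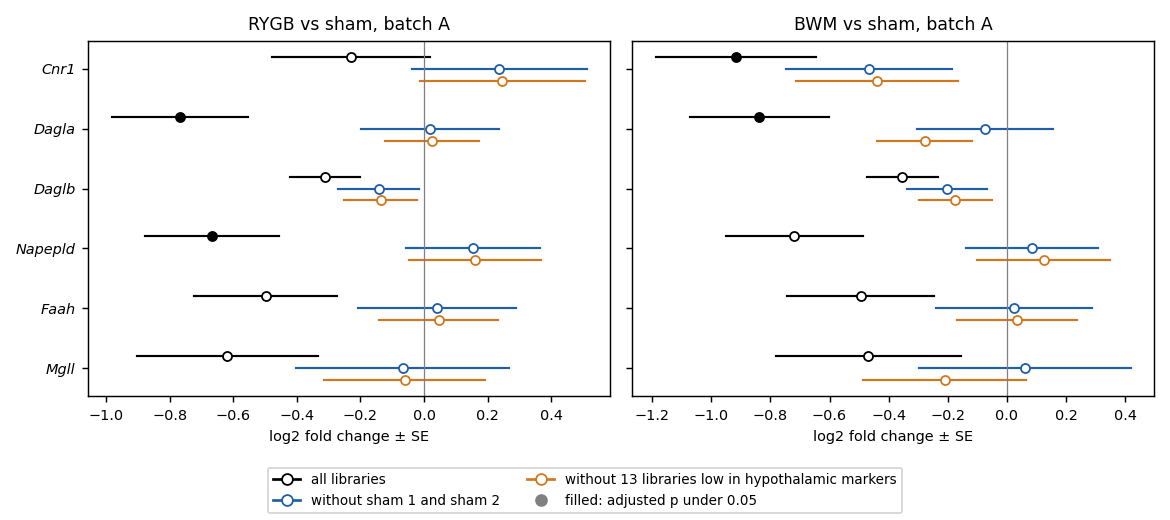
Log2 fold change (± SE) of each gene within batch A for RYGB vs. sham and BWM vs. sham, with all libraries (black), without sham 1 and sham 2 (blue) and without the 13 libraries low in hypothalamic markers (orange), where filled symbols are called. Dagla moved from -0.77 to 0.02 for RYGB vs. sham, while Cnr1 for BWM vs. sham moved from -0.92 to -0.47 and -0.44.

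Around the 6 genes, 44 others of the pathway were listed (other receptors and their G proteins, further enzymes of synthesis and breakdown, enzymes that supply diacylglycerol, and lipid carriers), and 41 were tested. In RYGB vs. sham 4 were called higher and 3 lower, or 7 of 41 beside 13% of all genes. In the other 7 comparisons, sham vs. saline among them, 0 of 41 were called by edgeR. There, 0% to 0.343% of all genes were called, so this count cannot tell the pathway genes from all genes. In batch A alone 2 rose and 2 fell for RYGB vs. sham, beside 8.64% of all genes called, and 1 rose and 1 fell for BWM vs. sham, beside 5.28%. In batch B alone 2 rose and 0 fell for RYGB vs. sham, beside 2.74%.

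The 7 calls in RYGB vs. sham over both batches, where 13% of all genes were called, are given by class. Whether a class differed from all genes was not tested. Of 6 further genes of breakdown, 2 fell and none rose, and of 4 lipid carriers 1 fell, Scp2 (log2 fold change -0.23 ± 0.08 SE, adjusted p = 0.0471). Abhd6, a serine hydrolase that takes a share of 2-arachidonoylglycerol from Mgll, had a lowest, median and highest level of 32.1, 37.1 and 67.3 CPM after RYGB and 33.8, 48.9 and 91.0 CPM after sham (log2 fold change -0.45 ± 0.13 SE, adjusted p = 0.0197, called in 31 of 37 alternatives). Abhd12, which also hydrolyses monoacylglycerols, had 167, 204 and 254 CPM after RYGB and 212, 234 and 285 CPM after sham (-0.22 ± 0.07, adjusted p = 0.0285, called in 28 of 37). Both overlapped between groups. Without sham 2, neither was called (Abhd6 -0.31 and Abhd12 -0.20). Without the 13 libraries Abhd6 was at -0.20 and not called, and Abhd12 was at -0.24 and called.

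Of 10 genes that supply diacylglycerol 2 rose, of 9 receptor partners 1 and of 6 other receptors 1, and none of these fell, again beside 13% of all genes called. Gnaq, which couples receptors to the phospholipase C that supplies diacylglycerol, had 5.34, 21.2 and 36.0 CPM after RYGB and 4.997, 6.26 and 24.98 CPM after sham (log2 fold change 1.18 ± 0.27 SE, adjusted p = 0.00429, called in 35 of 37 alternatives). Its relative Gna11 was at 0.62 ± 0.20 (adjusted p = 0.0340, called in 24 of 37) and Gnai3, a subunit through which CB1 lowers cAMP, at 0.25 ± 0.09 (adjusted p = 0.0439, called in 17 of 37). Cnr2, the second cannabinoid receptor, known from immune cells, was at 0.67 ± 0.22 (adjusted p = 0.0342, called in 25 of 37) at a median of only 1.48 CPM after RYGB and 1.04 CPM after sham. With saline rats as the controls, none of these 6 genes was called, with Gnaq at 0.28, but only 0.00457% of all genes were called there.

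For each gene, the 3 genes whose levels followed it most closely were named, by Pearson's r on log2(CPM + 1) over 65 libraries with the group means in each batch subtracted, among 13612 genes. For Cnr1 they were Smim13 (0.78), Mmp16 (0.77) and Atp6v1a (0.77). For Dagla they were Kalrn (0.90), Slc8a2 (0.90) and Bsn (0.90), and for Mgll Fam131b (0.90), Chst2 (0.90) and Cdk19 (0.89). Apart from its copy, Faah was followed by Sept5 (0.88) and Fam81a (0.86). Daglb was followed by Synj2 (0.79), Faah (0.76) and Adap1 (0.76), and Napepld by Gabbr2 (0.77), Ptpn3 (0.76) and Kcnj9 (0.76). These values rest in part on the same libraries that stood apart above.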

How the data were processed

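Whole-hypothalamus poly-A RNA of 65 rats was sequenced, 1 library per animal. The authors trimmed reads with cutadapt (1.16 in the submitters' processing notes, while the study's methods list later versions as well), aligned them with STAR 2.7.2b to Rnor_6.0 and counted them over RefSeq exons with featureCounts 1.6.4, with reads that fit several genes divided between them, so the deposited values are estimated counts (30.3% of nonzero values were not whole at a tolerance of 1e-06). Values were rounded to whole counts for testing.

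Genes were filtered with filterByExpr (minimum count 10, minimum total 15), scaled by TMM and tested in edgeR 4.0.16 (R 4.3.3) with the robust quasi-likelihood test, group and batch in 1 fit over all 65 libraries. Benjamini-Hochberg adjustment ran over 21871 genes. Values within a batch and differences between batches came from a fit with the 12 combinations of group and batch. DESeq2 1.42.0 was an alternative, beside other scaling, filters, controls, samples and a replicate block, and leaving out each animal in turn. The code was tested on simulated data. Leaving out the 13 libraries low in hypothalamic markers, or sham 1 and sham 2, and summing Faah with its copy were chosen after seeing the data. Figures were drawn with matplotlib 3.10.9.

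All 6 genes were named in every comparison. Of the other pathway genes, up to 6 called genes with the smallest p were named per comparison, and for each of the 6 the 3 genes with the highest r among those with a mean of at least 5 CPM. Scp2, the 7th called pathway gene, was named after its value was seen. The genes and lists were chosen with earlier results of these data known.

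Replicate numbers were checked for pairing by correlating the deviations of same-numbered libraries from their group means. All 5 pairs were above 0.1 for liraglutide and saline only (r from 0.321 to 0.611), and for RYGB and sham 4 of 11 were. No 2 libraries of a group and batch agreed within counting noise, the smallest chi-square per degree of freedom being 16.1 over 168 pairs.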

Additional observations from a re-analysis of the deposited data

Results flagged for a closer look

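Within 1 group and batch of 4 to 10 libraries, 11 of 54 sets of a gene held 1 library far from the others by Dixon's test. The nominal rate of about 1 in 20 holds for independent sets of normally distributed values, while CPM was not log-scaled here and the sets share libraries. The share of sets flagged over all genes was not computed. The count therefore cannot be read as particular to these genes. For Faah, the library stood at 38.6 CPM in lean 2 (nearest other 25.5), 46.1 CPM in PYY3-36 2 (20.3), 25.9 CPM in PYY3-36 + liraglutide 8 (18.8), 45.4 CPM in saline 4 (22.6) and 64.99 CPM in sham 2 (27.7). For Cnr1 it was sham 2 at 236 CPM, against 104 CPM in the nearest. For Dagla it was BWM 1 at 108 CPM (52.9) and PYY3-36 2 at 102 CPM (49.6). For Mgll it was BWM 1 at 251 CPM (119) and PYY3-36 + liraglutide 4 at 139 CPM (105). For Daglb it was BWM 5, on the low side, at 24.5 CPM (27.9). BWM 5 also had the highest summed pituitary markers of all libraries, 76902 CPM against a median of 10.5 CPM. All but PYY3-36 + liraglutide 4 and BWM 5 were among the 13 libraries low in hypothalamic markers.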

How the results depend on the processing

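The number of the 6 genes called stayed at 0 under most alternatives. For RYGB vs. sham it was 2 within batch A, beside 8.64% of all genes, and 0 to 1 when 1 animal was left out. For BWM vs. sham it was 2 within batch A, beside 5.28% of all genes, and 1 with no batch term (Cnr1, log2 fold change -0.78, adjusted p = 0.0263, range 0.0263 to 0.641 over its alternatives). For batch B vs. batch A it was 2 with library size only (Faah and Dagla) and 1 without the 13 libraries low in hypothalamic markers (Mgll). In the main fit 40.7% of all genes were called between the batches. The share of all genes was not computed for these 2 alternatives, for the fit with no batch term or with 1 animal left out. The counts there cannot be set against all genes. Within batch A, the called fold changes of RYGB vs. sham turned positive without sham 1 and sham 2, at 0.018 for Dagla and 0.15 for Napepld, and without the 13 libraries, at 0.025 and 0.16. The replicate block was fitted for the 8 comparisons over both batches, the test over all groups and batch B vs. batch A, and called 0 of the 6 in each, as without it. It was not run within a batch, where the only calls were made, or for the differences between batches. The cause of these changes was not tested.

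Over all alternatives 181 of 1989 fold changes changed sign, 4 of them called in either fit and 70 of them by more than 1 SE. These values cover the 6 members and, for RYGB vs. sham, also the 6 called pathway genes with the smallest p. A change of sign was counted as a reversal only where a value was called. Summing Faah with its copy changed no call. Raw counts of Napepld, the lowest of the 6 members, were 237 or more in every library.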
